A study of Fukomys damarensis and Heterocephalus glaber and Cavia porcellus with 28 samples.

Results

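The genes that make, cut, bind and take up hyaluronan were compared between 4 rodent species, separately in heart and in liver. The set was chosen by name and holds 10 genes: the synthases Has1, Has2 and Has3, the hyaluronidases Hyal1 and Hyal2, the hyaluronan-degrading protein gene Cemip, and the receptor genes Cd44, Lyve1, Hmmr and Stab2. Of these, 8 were found among the 13928 genes of the heart and liver tables, and Has1 and Hmmr were not analysed here. All 8 passed the filter on low values in heart, where 10667 genes did. The mouse gene identifiers are ENSMUSG00000022367 (Has2), ENSMUSG00000031910 (Has3), ENSMUSG00000010051 (Hyal1), ENSMUSG00000010047 (Hyal2), ENSMUSG00000052353 (Cemip), ENSMUSG00000005087 (Cd44), ENSMUSG00000030787 (Lyve1) and ENSMUSG00000035459 (Stab2). In liver 5 passed, of 10887 genes, and Has2, Has3 and Cemip fell under the filter, which was set on the mean over all 14 livers.

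Bulk RNA depleted of ribosomal RNA had been sequenced from flash-frozen tissue of 2 African mole-rats, the naked and the Damaraland species, and of 2 outgroups, guinea pig and mouse. Heart came from 3 naked mole-rats aged 13, 15 and 17 months, 5 Damaraland mole-rats aged 36 or 48 months, 3 guinea pigs aged 2.3 months and 3 mice aged 2 months. Liver came from 4 naked mole-rats aged 13 to 17 months, 5 Damaraland mole-rats aged 36 or 48 months, 3 guinea pigs aged 2.3 months and 2 mice aged 2 months. Each library is an animal of its own within its tissue, several animals gave both tissues, and no strain, genotype or treatment is given for any group. All animals were male except the fourth Damaraland liver animal. A Damaraland animal is given as 48 months in its heart label and 36 months in its liver label. Age followed species, so the effects of age and species cannot be told apart.

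Hyaluronan is a long, unbranched sugar chain made at the cell surface by membrane synthases from UDP-glucuronic acid and UDP-N-acetylglucosamine. Long chains are cut outside the cell or after uptake, by hyaluronidases and by the Cemip protein, and the fragments are cleared mainly in lymph nodes and by sinusoidal endothelial cells of the liver. Naked mole-rats are known for hyaluronan chains of very high molecular mass in several tissues, a trait that has been tied to Has2 and to slow breakdown.

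Levels are given as the deposited variance-stabilised values, which behave like log2 values for abundant genes and squeeze differences between rare ones. A gene with 0 reads sits at 5.36 in heart and 4.29 in liver. Read numbers are whole reads recovered from those values, and scaled reads are reads divided by the size factor of the library. A difference was called when limma gave an adjusted p under 0.05 and the difference was at least 1 on this log2-like scale. Depth was 4089633 to 26985779 reads per heart library and 11220505 to 21467939 per liver library, with the third naked mole-rat heart the shallowest. The tissue labels held up against marker genes: the summed scaled reads of 6 heart muscle genes were 451310 to 1599805 in hearts and 554 to 3058 in livers. Those of 4 hepatocyte genes were 800483 to 2820325 in livers and 319 to 29206 in hearts. Values were not corrected for gene length, which differs between genes and between species. For any gene, a difference between species can therefore include a difference in length or in how reads were assigned, which was not tested. No level is ranked here between genes, and ratios to Alb reads are given only to compare libraries. These are bulk samples, in which fewer cells of a type and less RNA per cell cannot be told apart.

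In heart, Cemip and Stab2 were the members higher in the mole-rats than in the outgroups, 2 of 8 tested, with none lower. Among all genes tested in heart, 23.4% were called in that comparison. Cemip and Stab2 passed the filter on low values only through the mole-rat hearts, so their entry into the test was not independent of this difference. Their guinea pig and mouse means lay under the filter, 6.26 and 5.61 for Cemip and 6.15 and 6.10 for Stab2. The median difference of the 8 members was 0.07, beside -0.01 for all genes. By limma 0 members were shifted in both mole-rats, meaning called the same way in each of the 4 comparisons of 1 mole-rat with 1 outgroup, where 4.68% of genes were. At an unadjusted p under 0.05 with no size threshold 2 were, Cemip and Stab2, and with voom on the recovered reads 1 was, Stab2. Stab2 was the 1 member shifted in the naked mole-rat alone, meaning called against each of the other species, where 9.02% of genes were.

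**Figure D1:**
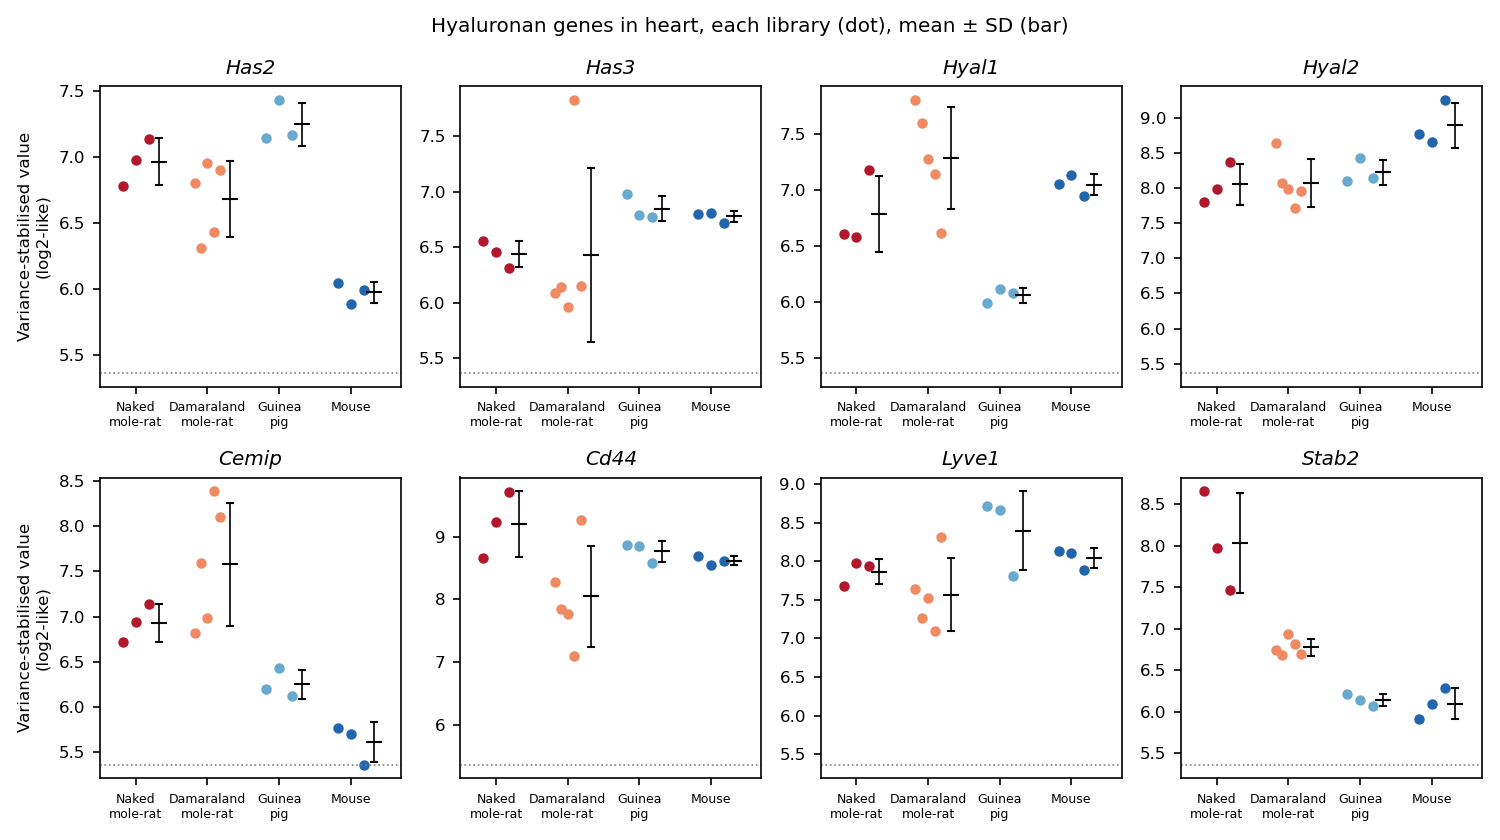
Variance-stabilised value (log2-like, vertical axis) of the 8 hyaluronan genes in the heart libraries of each species; dots are libraries, bars the mean ± SD, and the dotted line is the value of a gene with 0 reads. All naked mole-rat dots for Stab2 lie above those of the other species, mouse Has2 and Cemip dots lie lowest, and the Damaraland dots for Has3 hold 1 library far above the rest.

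Has2, the synthase best known for long hyaluronan chains, was lowest in mouse heart and highest in guinea pig heart. Its values were 6.78, 6.98 and 7.14 in naked mole-rat hearts (51, 88 and 19 reads) and 6.80, 6.32, 6.96, 6.44 and 6.90 in Damaraland hearts (51, 21, 86, 25 and 33 reads). Guinea pig hearts had 7.14, 7.43 and 7.17 (109, 131 and 93 reads), and mouse hearts 6.04, 5.89 and 5.996 (14, 7 and 10 reads). Every mouse heart therefore lay below every heart of the other species, while naked and Damaraland hearts overlapped. The guinea pig minus mouse difference was 1.27 (SE 0.19, limma adjusted p = 1.87e-05) and was called. The naked minus mouse difference of 0.99 (SE 0.19, limma adjusted p = 0.000186) passed the p threshold but was just under the size threshold. With voom on the recovered reads, a log2 scale that does not squeeze rare genes, it was 2.76 (SE 0.56) with a limma adjusted p of 0.000364, a call. Damaraland minus mouse was 0.71 (SE 0.17, limma adjusted p = 0.00127), also under the size threshold, and it too was a call with voom (limma adjusted p = 0.00179). Damaraland minus guinea pig was -0.57 (SE 0.17, limma adjusted p = 0.00729), not called, and -1.16 with voom (limma adjusted p = 0.00493), a call. In scaled reads the naked mole-rat mean of 56.9 was 7.49 times the mouse mean of 7.59. The Damaraland mean of 38.75 was 5.1 times the mouse mean, and the guinea pig mean of 81.5 was 10.7 times it. The naked minus Damaraland difference was 0.28, with a 95% interval of -0.07 to 0.63, and naked minus guinea pig was -0.28, with an interval of -0.68 to 0.11. Guinea pig hearts also had the most RNA of 9 fibroblast marker genes, 46182 to 121110 summed scaled reads, and mouse hearts the least, 8773 to 11699, with 13314 to 26778 in naked and 14708 to 46460 in Damaraland hearts. The 9 genes did not move together. Col1a2, Col3a1 and Pdgfra were highest in guinea pig and lowest in mouse hearts. Dcn and Lum were instead lowest in naked mole-rat hearts (means 10.56 and 7.68), and Reln and Lrat in guinea pig hearts (7.03 and 5.46). These genes were singled out after their values were seen. The part of fibroblasts in the Has2 order was not tested.

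Has3, the synthase of shorter chains, was called in 0 of 6 pairs of species in heart by limma, and 0 pairs had an unadjusted p under 0.05. Naked mole-rat hearts had 6.55, 6.45 and 6.31 (35, 38 and 5 reads), guinea pig hearts 6.98, 6.79 and 6.77, and mouse hearts 6.80, 6.81 and 6.72. Damaraland hearts had 6.08, 6.15, 5.96, 7.83 and 6.15. The fourth Damaraland heart held 161 reads of Has3 against 8 to 14 in the other 4, so the Damaraland SD was 0.79 beside 0.05 to 0.12 in the other species. The naked mole-rat minus Damaraland difference was 0.01, with a 95% interval of -0.64 to 0.66.

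Hyal1, a lysosomal hyaluronidase, was lowest in guinea pig heart. Guinea pig hearts had 5.99, 6.12 and 6.08 (12, 15 and 13 reads), against 6.60, 6.58 and 7.18 in naked mole-rats (38, 48 and 20 reads). Damaraland hearts had 7.80, 7.59, 7.27, 7.14 and 6.61, and mouse hearts 7.05, 7.13 and 6.94. Every guinea pig heart lay below all other hearts, while the other 3 species overlapped. Damaraland minus guinea pig was 1.22 (SE 0.22, limma adjusted p = 0.000134) and was called, while guinea pig minus mouse, at -0.98 (SE 0.24, limma adjusted p = 0.00245), fell short of the size threshold. Hyal2, a hyaluronidase anchored to the cell surface that starts the cutting of long chains, was called by limma in 0 of 6 pairs in heart, although 3 had an unadjusted p under 0.05. Mouse hearts had the highest Hyal2 values, 8.78, 8.65 and 9.26, and all lay above the 7.72 to 8.64 of the mole-rats and the 8.10 to 8.43 of guinea pigs. Naked minus mouse was -0.84 (SE 0.23, limma adjusted p = 0.00418) and Damaraland minus mouse -0.82 (SE 0.21, limma adjusted p = 0.00212). Guinea pig minus mouse was -0.67 (SE 0.23, limma adjusted p = 0.0185). These passed the p threshold and fell short only of the size threshold. With voom naked minus mouse was -1.17 (limma adjusted p = 0.0018) and Damaraland minus mouse -1.03 (limma adjusted p = 0.00116), both calls. Guinea pig minus mouse was -0.83 with voom and was not called.

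Cemip, a secreted and membrane-bound protein that helps cut hyaluronan outside lysosomes, separated the mole-rats from the outgroups in heart. As given above, it passed the filter on low values only through the mole-rat hearts. Naked mole-rat hearts had 6.72, 6.94 and 7.14 (46, 84 and 19 reads), and Damaraland hearts 6.82, 7.60, 6.98, 8.39 and 8.10 (52, 136, 89, 271 and 127 reads). Guinea pig hearts had 6.20, 6.44 and 6.13 (22, 31 and 15 reads), and mouse hearts 5.77, 5.71 and 5.36 (5, 3 and 0 reads). The 8 mole-rat hearts were all above the 6 outgroup hearts, and naked and Damaraland hearts overlapped. A count of 0 in the third mouse heart allows up to 3 reads, or 0.121 reads per 1000000 reads (RPM), by counting error alone. The mole-rats minus outgroups difference was 1.32 (SE 0.21, limma adjusted p = 3.94e-05), and 3.82 (SE 0.70) with voom. Damaraland minus guinea pig was 1.32 (SE 0.28), Damaraland minus mouse 1.96 (SE 0.28) and naked minus mouse 1.32 (SE 0.32), and all were called. Naked minus guinea pig, 0.68 (SE 0.32, limma adjusted p = 0.0752), was not called. With the replicate number as a block, Damaraland minus guinea pig was 0.88 and no longer called.

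Cd44, the main cell surface receptor for hyaluronan, was higher in naked than in Damaraland hearts on average, but the libraries overlapped. Naked mole-rat hearts had 8.66, 9.24 and 9.71 (385, 808 and 204 reads). Damaraland hearts had 8.28, 7.84, 7.76, 7.09 and 9.26 (268, 175, 221, 70 and 342 reads). The fifth Damaraland heart lay above 2 of the 3 naked mole-rat hearts, and outgroup hearts were at 8.58 to 8.86 in guinea pigs and 8.56 to 8.69 in mice. The naked minus Damaraland difference was 1.15 (SE 0.34, limma adjusted p = 0.00739). It fell under the size threshold without the fourth Damaraland heart (0.91) or without the third naked mole-rat heart (0.90), and without both it was 0.66 with a limma adjusted p of 0.085. Tested against a difference of 0.5, its limma adjusted p was 0.103, and with sample weights the difference was 0.98. Summed scaled reads of 5 mesothelium genes, which mark the lining of the heart, were 213 to 808 in naked, 116 to 634 in Damaraland, 87.1 to 117 in guinea pig and 108 to 468 in mouse hearts. The 5 genes did not move together: naked minus Damaraland was 1.96 for Msln, which was called, but -0.71 for Wt1 and -0.58 for Krt19, which were not, and the median of the 4 tested was -0.19. Within the Damaraland hearts the highest sum was that of the fifth, with 187 scaled reads of Msln against 11.4 to 37.1 in the others and 233 of Krt19 against 23.6 to 59.2. Msln, Wt1 and Krt19 were singled out after their values were seen. Summed scaled reads of 5 leukocyte genes were lower in naked hearts, 116 to 174 against 291 to 425 in Damaraland hearts. Those of 5 macrophage genes were 866 to 1645 in naked and 1416 to 3295 in Damaraland hearts. The part of these cell types in the Cd44 difference was not tested. Lyve1, the hyaluronan receptor of lymphatic and sinusoidal endothelium, was called by limma in 0 of 6 pairs in heart, where 1 had an unadjusted p under 0.05. Its values were 7.67 to 7.98 in naked, 7.09 to 8.32 in Damaraland, 7.81 to 8.72 in guinea pig and 7.89 to 8.13 in mouse hearts, which overlap in every pair. The widest Lyve1 difference was Damaraland minus guinea pig, at -0.83 (SE 0.25, limma adjusted p = 0.00802).

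Stab2, the receptor with which liver sinusoidal endothelium takes hyaluronan out of the blood, was higher in naked mole-rat heart than in the heart of each other species. Naked mole-rat hearts had 8.66, 7.97 and 7.46 (386, 271 and 28 reads). Damaraland hearts had 6.75, 6.69, 6.94, 6.82 and 6.69 (24 to 84 reads), guinea pig hearts 6.22, 6.14 and 6.08 (13 to 23 reads), and mouse hearts 5.91, 6.10 and 6.29 (9 to 22 reads). No naked mole-rat heart overlapped another species, and all Damaraland hearts lay above all outgroup hearts. Naked minus Damaraland was 1.25 (SE 0.20, limma adjusted p = 4.36e-05), naked minus guinea pig 1.89 (SE 0.22, limma adjusted p = 1.89e-06) and naked minus mouse 1.93 (SE 0.22, limma adjusted p = 1.15e-06). The mole-rats minus outgroups difference was 1.28 (SE 0.15, limma adjusted p = 1.19e-06). In scaled reads the naked mole-rat mean of 202 was 4.69 times the Damaraland mean of 43.1. With voom naked minus Damaraland was 2.25 (SE 0.32, limma adjusted p = 1.47e-05). Without the first naked mole-rat heart, naked minus Damaraland was 0.94 and under the size threshold.

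Of 4 hepatocyte marker genes, Alb, Fgb and Ttr were also highest in naked mole-rat hearts, and Apoa1 was not. Against Damaraland and against guinea pig hearts 3 were called higher and 1 lower, and Apoa1 averaged 370 scaled reads in naked mole-rat hearts, 1736 in Damaraland, 3357 in guinea pig and 55.2 in mouse hearts. The summed scaled reads of the 4, mostly Alb in the naked mole-rat, were 10398 to 29206 in naked mole-rat hearts, 3326 to 6650 in Damaraland, 3796 to 5338 in guinea pig and 319 to 1071 in mouse hearts. Alb, the plasma albumin gene, had 1622, 592 and 1699 RPM in naked mole-rat hearts, where Stab2 had 20.2, 12.0 and 6.85 in the same order. The third heart had the most Alb and the least Stab2 of the 3, with 28 reads of Stab2 in the shallowest library. Per 1000 Alb reads there were 4.03 to 20.3 Stab2 reads in naked mole-rat hearts and 1.13 to 2.34 in naked mole-rat livers. In the hearts of the other species there were 7.53 to 75.6. For Ambp, a gene of the liver, the same ratio was 50.6 to 84.9 in heart and 43.4 to 87.4 in liver. For Itih1, another gene of the liver, it was 10.2 to 16.8 in naked mole-rat hearts and 6.06 to 9.24 in naked mole-rat livers. Of 13 genes taken per Alb read, 4 were higher in every naked mole-rat heart than in any naked mole-rat liver: Stab2, Itih1, Lyve1 and Stab1. Summed scaled reads of 8 sinusoidal endothelium markers were 2035 to 3063 in naked mole-rat, 2608 to 5532 in Damaraland, 2887 to 3236 in guinea pig and 4826 to 5197 in mouse hearts. That order of the mole-rats rested on Stab1: without it, a choice made after seeing the data, the 7 others came to 1985 to 3008 in naked mole-rat, 826 to 1536 in Damaraland, 2412 to 2565 in guinea pig and 3476 to 3683 in mouse hearts. Gata4, also a factor of heart muscle, made up much of the rest, and without it too the 6 left came to 847 to 1137 in naked mole-rat, 536 to 1113 in Damaraland, 1131 to 1282 in guinea pig and 1188 to 1333 in mouse hearts. Among the 8, Oit3 alone was highest in naked mole-rat hearts, at 33.0 scaled reads on average beside 2.84 to 7.32 in the other species. It was under the filter, was not tested and was picked after its values were seen. Fcgr2b, Flt4 and Stab1 were lowest in naked mole-rat hearts, at means of 6.64, 7.81 and 6.97. The part of liver RNA in the Stab2 difference was not tested.

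**Figure D2:**
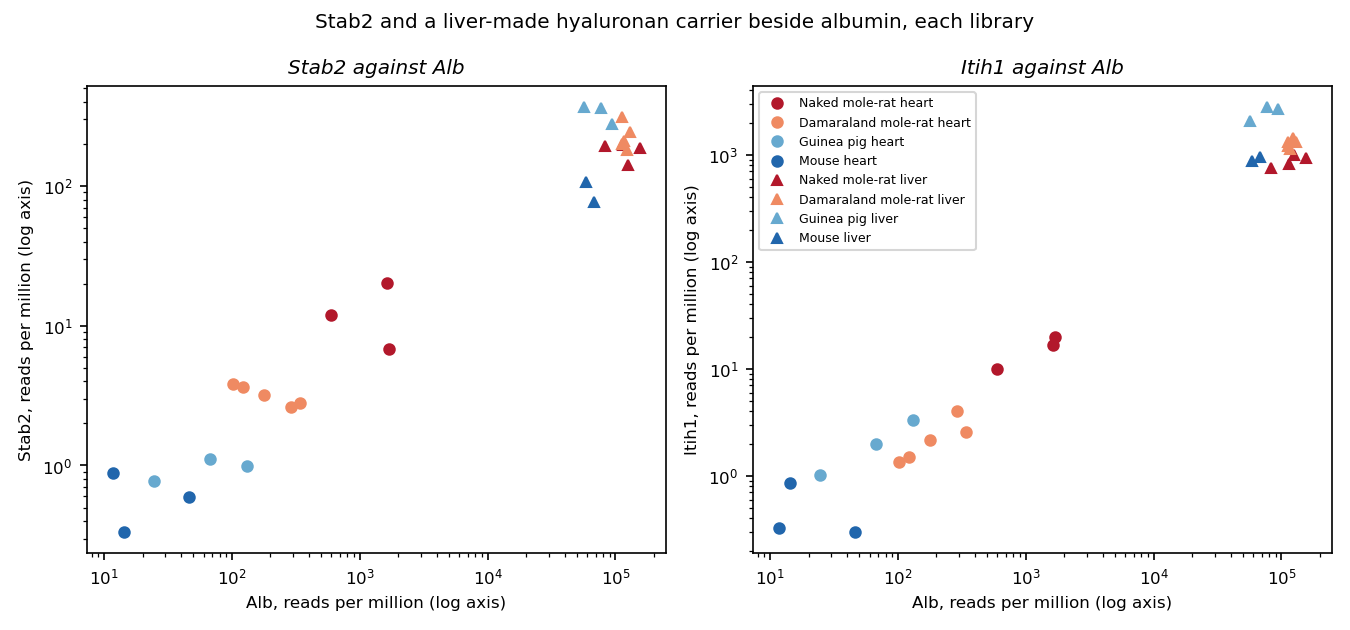
Vertical log axes show Stab2 (left) and Itih1 (right) as RPM, the horizontal log axis shows Alb RPM, in each library; circles are hearts, triangles livers, and colours are species. The hearts with the most Itih1 are also those with the most Alb, and the naked mole-rat hearts (592 to 1699 Alb RPM) stand apart from the other hearts in both panels.

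Stab1, the close relative of Stab2 in the same kind of endothelium and in macrophages, was lowest in the naked mole-rat in both tissues, and was looked at after its values were seen. It ran opposite to Stab2 against all 3 other species in heart, but in liver only against mouse, since liver Stab2 was also lower in naked mole-rats than in guinea pigs and Damaraland mole-rats on average (-0.63 and -0.10). Naked mole-rat hearts had 15 to 99 reads of Stab1, against 600 to 3047 in the hearts of the other species. In liver the naked mole-rat mean was 242 scaled reads, against 3628 in Damaraland mole-rats, 2419 in guinea pigs and 1458 in mice. The naked minus Damaraland difference was -4.20 (SE 0.24, limma adjusted p = 3.57e-10) in heart and -3.75 (SE 0.19, limma adjusted p = 2.6e-11) in liver. Stab1 was shifted in the naked mole-rat alone in both tissues. How genes were matched across species is not given in the sources used here, so a lower level of Stab1 and fewer reads assigned to it in the naked mole-rat cannot be told apart.

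By pairs of species, 2 of 8 members were called in naked minus Damaraland heart (Cd44 and Stab2, both higher), where 29.4% of genes were, and 1 in naked minus guinea pig heart (Stab2), where 33.0% were. Naked minus mouse heart gave 2 (Cemip and Stab2, both higher), where 38.2% of genes were called, and Damaraland minus guinea pig 2 (Hyal1 and Cemip, both higher), where 29.7% were. Damaraland minus mouse gave 1 (Cemip) where 34.9% were called, and guinea pig minus mouse 1 (Has2) where 32.1% were. These comparisons share samples and are not independent of each other. In each of them the share of members called was under the share of all genes. Has2, Has3, Hyal1, Cemip and Stab2 had means only 0.23 to 0.50 above the filter, where the scale squeezes differences. Of the 48 combinations of a member and a pair, 9 were called, with 20 without the size threshold and 23 with voom. Shares of all genes under those settings are not given here, so the lower share of members is not read as a result.

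**Figure D3:**
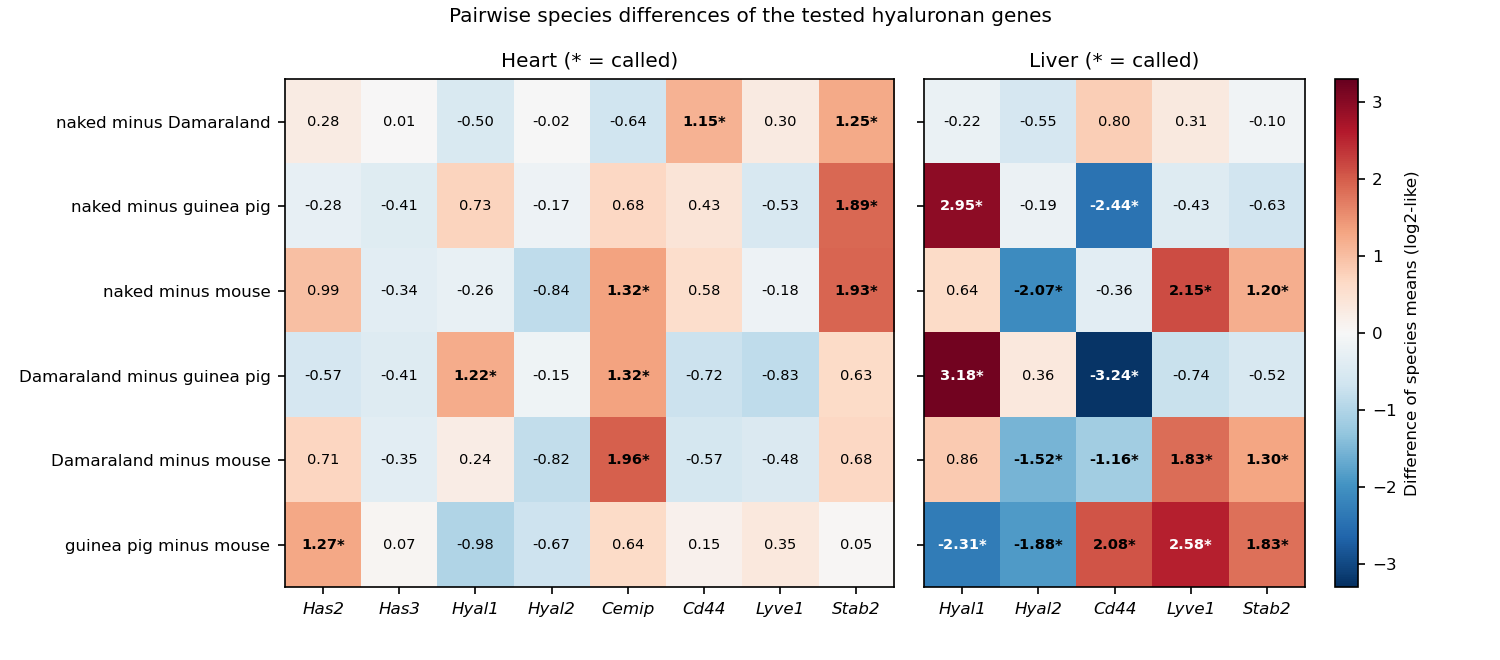
Difference of species means (log2-like, colour and printed number) for each hyaluronan gene tested, in the 6 pairs of species, heart left and liver right; a star marks a difference that was called. Stars are in 9 of 48 cells in heart and in 16 of 30 cells in liver, where the pair of the 2 mole-rats has none. Has2, Has3 and Cemip, which are rare, were tested in heart only, and with voom 23 of the 48 heart cells were called.

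In liver, Hyal1 was higher and Cd44 lower in the mole-rats than in the outgroups, 2 of 5 members tested, where 28.1% of genes were called. The median difference of the 5 was 0.34, beside 0.02 for all genes. By limma 0 members were shifted in both mole-rats (6.29% of genes were) and 0 in the naked mole-rat alone (10.3% of genes were). At an unadjusted p under 0.05 with no size threshold 1 was in the first set, Hyal1, and 0 in the second, and voom gave 0 in both. The outgroups did not lie together: for Hyal1 and Cd44 the guinea pig stood apart, and for Hyal2, Lyve1 and Stab2 the mouse did.

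**Figure D4:**
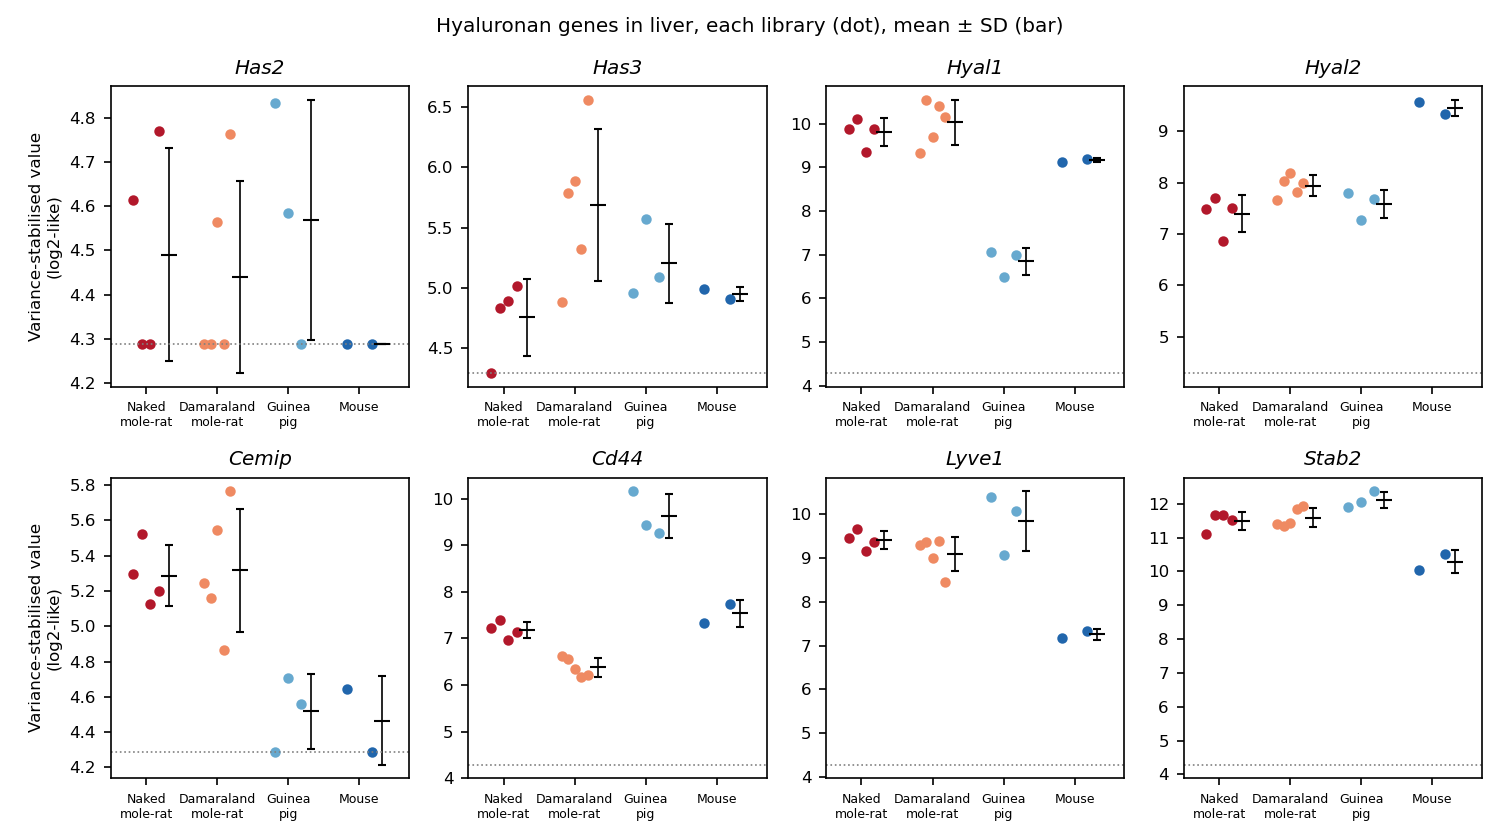
Variance-stabilised value (log2-like, vertical axis) of the 8 hyaluronan genes in the liver libraries of each species; dots are libraries, bars the mean ± SD, and the dotted line is the value of a gene with 0 reads. Guinea pig dots stand apart for Hyal1 (low) and Cd44 (high), and mouse dots for Hyal2 (high), Lyve1 and Stab2 (low); Has2 lies at or near the line in all species.

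Has2, Has3 and Cemip were under the filter in liver and were not tested. Has2 had 0 to 4 reads in every liver library, with 0 in both mouse livers, which allows up to 0.267 and 0.163 RPM. Has3 had 3, 25, 37, 10 and 56 reads in Damaraland livers, against 0 to 7 in naked mole-rats, 6 to 20 in guinea pigs and 4 and 5 in mice. Damaraland and guinea pig livers overlapped for Has3. Cemip had 8 to 11 reads in naked mole-rat livers and 3 to 22 in Damaraland livers, against 0 to 2 in guinea pigs and 0 and 1 in mice. All 9 mole-rat livers were above all 5 outgroup livers for Cemip, the same side as in heart, at a depth of a few reads. Without the filter on low values none of these 3 genes was called, but none could be. The widest difference between species means was 0.28 for Has2, 0.93 for Has3 and 0.85 for Cemip, under the size threshold of 1. In scaled reads the mole-rat means of Cemip were 12.8 to 19.5 times the outgroup means, and the Damaraland mean of Has3 was 8.74 times the naked mole-rat mean, both from few reads.

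Hyal1 was low in guinea pig liver and high in the other species. Guinea pig livers had 7.05, 6.50 and 6.996 (138, 67 and 135 reads), and mouse livers 9.13 and 9.20. Naked mole-rat livers had 9.88, 10.11, 9.34 and 9.88, and Damaraland livers 9.33, 10.55, 9.69, 10.40 and 10.15 (544 to 1584 reads). The mole-rats overlapped each other and all lay above the mice, and the guinea pigs lay far below. Mole-rats minus outgroups was 1.91 (SE 0.19, limma adjusted p = 1.31e-07). Against guinea pig the naked mole-rat was higher by 2.95 (SE 0.26) and the Damaraland mole-rat by 3.18 (SE 0.25), which is 10.7 and 13.0 times in scaled reads. Against mouse the mole-rat differences were 0.64 (SE 0.29) and 0.86 (SE 0.28) and were not called. In the RefSeq annotation of the Damaraland mole-rat the Hyal1, Hyal3 and Naa80 genes overlap, Hyal1 and Naa80 by 2499 bases. Reads could be split between them, so Hyal1 values in heart and liver are uncertain to that extent. The annotations of the other 3 species were not examined. Naa80, whose enzyme acetylates actin, averaged 29.1 scaled reads in guinea pig, 33.9 in naked mole-rat, 227 in Damaraland and 299 in mouse liver, and in heart 31.4, 48.0, 174 and 260 in the same order. Hyal3 means were 8.52 in naked mole-rat, 6.39 in Damaraland, 6.46 in guinea pig and 5.76 in mouse heart. In liver they were 6.57, 5.32, 5.91 and 5.57 in the same order. The part of read splitting in the Hyal1 differences of either tissue was not tested.

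Hyal2 was highest in mouse liver. Mouse livers had 9.57 and 9.35, against 7.48, 7.70, 6.87 and 7.51 in naked mole-rats, 7.67, 8.03, 8.19, 7.81 and 8.002 in Damaraland mole-rats and 7.79, 7.28 and 7.68 in guinea pigs. Both mouse livers lay above all others, and the other 3 species overlapped in each pair. Naked minus mouse was -2.07 (SE 0.23, limma adjusted p = 4.78e-07), Damaraland minus mouse -1.52 (SE 0.22, limma adjusted p = 1.18e-05) and guinea pig minus mouse -1.88 (SE 0.24, limma adjusted p = 3.69e-06).

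Cd44 was highest in guinea pig liver and lowest in Damaraland liver. Guinea pig livers had 10.16, 9.43 and 9.27 (1582, 788 and 854 reads), and Damaraland livers 6.63, 6.55, 6.35, 6.16 and 6.22 (36 to 66 reads). Naked mole-rat livers had 7.23, 7.39, 6.98 and 7.14, and mouse livers 7.34 and 7.74. The guinea pig livers stood clear of all others, the Damaraland livers lay below all others, and naked mole-rat and mouse livers overlapped. Damaraland minus guinea pig was -3.24 (SE 0.20, limma adjusted p = 2.87e-10), naked minus guinea pig -2.44 (SE 0.21, limma adjusted p = 1.83e-08) and Damaraland minus mouse -1.16 (SE 0.23, limma adjusted p = 0.000276). The last of these fell under the size threshold without the second mouse liver (-0.96) and with the replicate number as a block (-0.94). Naked minus Damaraland, 0.80 (SE 0.18, limma adjusted p = 0.00091), was under the size threshold although no libraries overlapped.

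Some genes of the leukocyte and mesothelium lists were also highest in guinea pig liver, and others of the same lists were not. Summed scaled reads of 5 leukocyte genes were 2253 to 2765 in guinea pig, 2020 to 2206 in mouse, 776 to 2708 in Damaraland and 531 to 696 in naked mole-rat livers. Against mouse, 2 of the 5 were called higher and 1 lower in guinea pig liver. Cd3e, a T cell gene picked after its values were seen, had 1301 to 2347 reads in guinea pig livers and 0 to 29 in all other livers. Lcp1, a gene of most leukocytes picked in the same way, averaged 442 scaled reads in guinea pig liver, below the 1896 of mouse and the 961 of Damaraland liver and above the 379 of naked mole-rat liver. Krt19, a gene of bile duct and lining epithelium from the mesothelium list and also picked after the fact, averaged 1224 scaled reads in guinea pig liver, 229 in naked mole-rat, 132 in Damaraland and 11.4 in mouse liver. Of the other genes of that list, Upk3b averaged 1.16 scaled reads in guinea pig liver and Lrrn4 6.05, the lowest of the 4 species, and Msln averaged 25.1 beside 153 in naked mole-rat liver. Their part in the Cd44 difference was not tested.

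Lyve1 and Stab2, the 2 receptors of liver sinusoidal endothelium in the set, were both lowest in mouse liver. For Lyve1 mouse livers had 7.17 and 7.34 (91 and 173 reads), naked mole-rat livers 9.45, 9.66, 9.15 and 9.35, Damaraland livers 9.28, 9.35, 8.99, 9.37 and 8.45, and guinea pig livers 10.37, 9.07 and 10.05. The mouse livers lay below all others and the other species overlapped. Lyve1 was higher than in mouse by 2.15 (SE 0.30) in naked mole-rats, 1.83 (SE 0.29) in Damaraland mole-rats and 2.58 (SE 0.32) in guinea pigs, and all were called. For Stab2 mouse livers had 10.05 and 10.52, naked mole-rat livers 11.10, 11.65, 11.66 and 11.52, Damaraland livers 11.39, 11.35, 11.43, 11.85 and 11.93, and guinea pig livers 11.91, 12.06 and 12.37. Mouse livers were again below all others, and guinea pig livers were above all naked mole-rat livers. Stab2 was higher than in mouse by 1.20 (SE 0.23) in naked mole-rats, 1.30 (SE 0.22) in Damaraland mole-rats and 1.83 (SE 0.24) in guinea pigs, and all were called. Without the first mouse liver the naked mole-rat difference was 0.96, under the size threshold. Naked minus Damaraland Stab2 was -0.10 in liver, with a 95% interval of -0.48 to 0.27. The summed scaled reads of 8 other sinusoidal markers were 4968 to 6249 in mouse, 5949 to 7746 in naked mole-rat, 8230 to 9841 in Damaraland and 11461 to 12125 in guinea pig livers. The order of the mole-rats rested on Stab1, and without it the 7 left came to 3563 to 4738 in mouse, 5760 to 7550 in naked mole-rat, 4833 to 5995 in Damaraland and 8424 to 9879 in guinea pig livers. The part of cell numbers in the Lyve1 and Stab2 differences was not tested.

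By pairs of species, 0 of 5 members were called in naked minus Damaraland liver, where 34.2% of genes were, although 2 of them, Hyal2 and Cd44, had an adjusted p under 0.05 in limma and voom called 1, Cd44. Naked minus guinea pig gave 2 (Hyal1 higher, Cd44 lower) where 37.8% of genes were called, and Damaraland minus guinea pig the same 2 genes in the same directions where 36.2% were. Naked minus mouse gave 3 (Lyve1 and Stab2 higher, Hyal2 lower) where 41.2% were called. Damaraland minus mouse gave 4, with Cd44 lower in addition, where 39.2% were called. Guinea pig minus mouse gave all 5 tested members (Cd44, Lyve1 and Stab2 higher, Hyal1 and Hyal2 lower) where 37.2% were called. Outside the pair of mole-rats, the share of members called was above that of all genes, narrowly so in the pairs with 2 of 5. With 5 members each share rests on few genes, and the pairs share samples.

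Other genes of the hyaluronan pathway were counted from lists, each as mole-rats minus outgroups, where 23.4% of all genes were called in heart and 28.1% in liver. Among 8 tested genes that make the sugar precursors, limma called 0 in heart (6 had an unadjusted p under 0.05) and 1 was higher in liver, Ugp2, which makes UDP-glucose. Ugp2 was higher in liver by 1.36 (SE 0.15, limma adjusted p = 5.39e-07), was shifted in both mole-rats and had all mole-rat livers above all outgroup livers. Of 5 other breakdown genes, 1 was higher and 1 lower in heart. Hyal3, a hyaluronidase relative, was higher by 1.34 (SE 0.11) and Hexa, a lysosomal hexosaminidase, had a difference of -1.23 (SE 0.14). Hyal3 was shifted in the naked mole-rat alone in heart, with 90 to 384 reads against 2 to 39 in the other species, and in the Damaraland annotation it overlaps Naa80 by 2492 bases. Its mean over all hearts was 0.36 above the filter, and without the naked mole-rat hearts it would have been under the filter. The naked mole-rat annotation was not examined. In liver Gusb, the lysosomal beta-glucuronidase, was higher by 1.28 (SE 0.17), the 1 of 5 called. Its means were 12.69 in naked mole-rat, 11.64 in Damaraland, 12.46 in guinea pig and 9.31 in mouse liver, so the Damaraland mean was below that of guinea pig and the mouse lay far below all 3.

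Of 10 tested hyaluronan-binding matrix and serum proteins, 6 were higher and none lower in heart, where 1153 of all 10667 genes tested were called higher and 1340 lower, and their median difference was 1.09 beside -0.01 for all genes. The largest were Ambp at 2.52 (SE 0.23) and Itih3 at 2.51 (SE 0.24), which encode parts of the inter-alpha-trypsin inhibitors that liver secretes and that bind hyaluronan. Both were shifted in the naked mole-rat alone in heart, as was Alb. Per 1000 Alb reads, Itih3 was 67.8 to 106 in naked mole-rat hearts and 50.0 to 113 in naked mole-rat livers. The part of liver RNA in these heart differences was not tested. In liver 2 of the 10 were higher and 2 lower, where 28.1% of all genes were called. Itih3 was higher by 1.73 (SE 0.22), and Habp4, which despite its name encodes an RNA-binding protein of the cell interior, had a difference of -2.25 (SE 0.11). Itih3 means were 16.97 in naked mole-rat, 15.20 in Damaraland, 15.49 in guinea pig and 13.22 in mouse liver. The Damaraland mean was thus below that of guinea pig, and Itih3 was shifted in the naked mole-rat alone. For Habp4 the means were 6.77, 6.45, 7.46 and 10.26 in the same order, with the mouse far above the rest. Of the 4 other receptor genes tested, Layn, the layilin gene, was higher in heart at 1.10 (SE 0.15, limma adjusted p = 6.88e-06), with all mole-rat hearts above all outgroup hearts, and limma called 0 in liver, where 4 had an unadjusted p under 0.05.

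**Figure D5:**
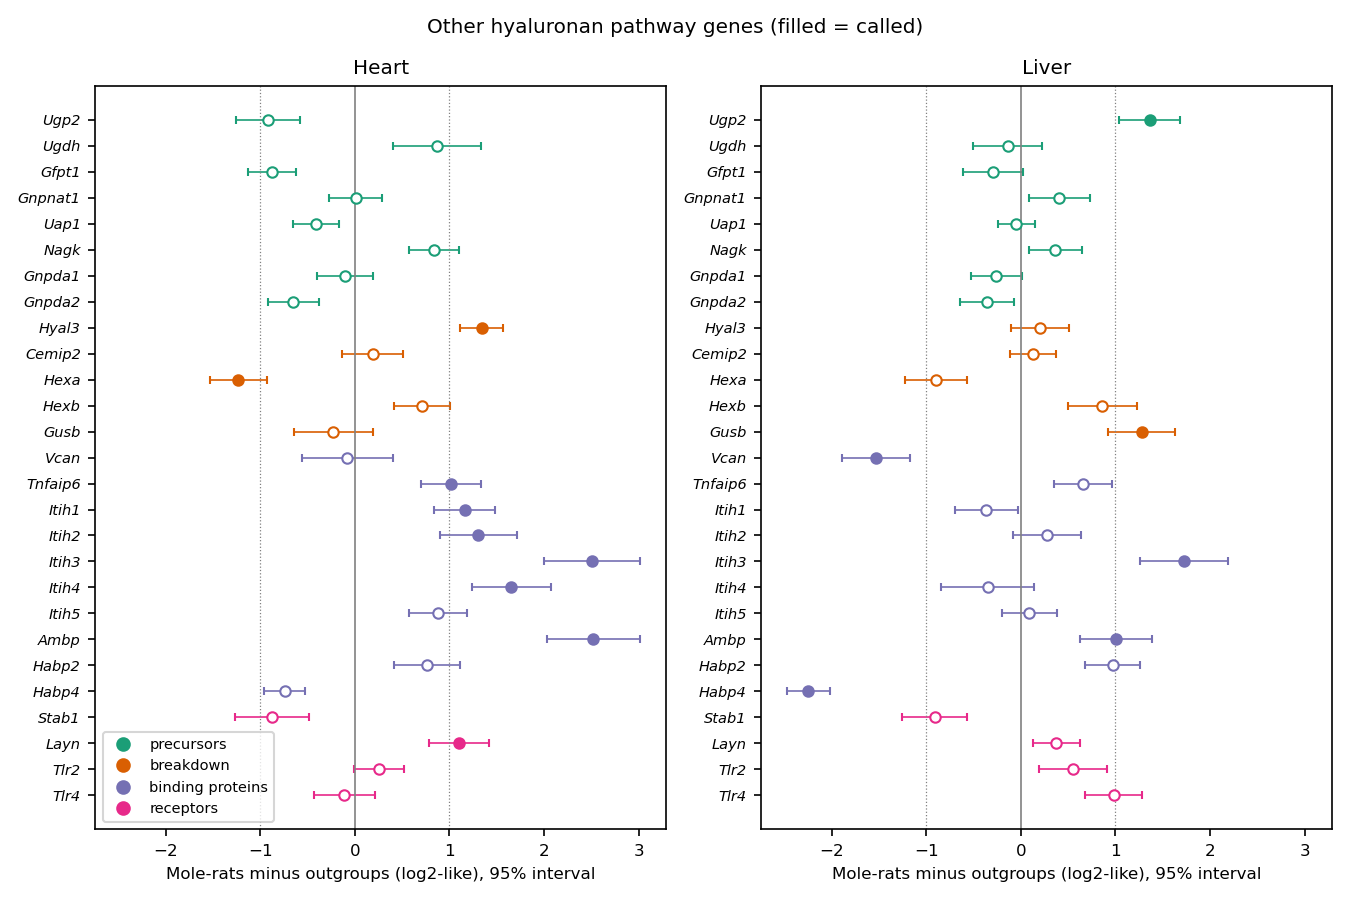
Mole-rats minus outgroups difference (log2-like, horizontal axis) with its 95% interval for the other hyaluronan pathway genes tested, by list (colour), in heart and liver; filled points were called and dotted lines mark the size threshold of 1. Heart points for Ambp and Itih3 lie near 2.5, and liver points run from Habp4 at -2.25 to Itih3 at 1.73.

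Genes with the most similar pattern were sought for the 3 members with the widest range of species means in each tissue, as the smallest root mean square distance between centred values over the 14 libraries. In heart the nearest to Cemip were Ap5z1, Als2cl and Pcdh10 (distance 0.32 to 0.34, beside a median of 1.02 over all genes). Those nearest to Stab2 were Galk2, Ap3m2 and Tfr2 (0.17 to 0.28). Of these only Tfr2, a transferrin receptor of liver cells, was taken per Alb read, a choice made after they were found. Tfr2 had 6.91 to 16.9 reads per 1000 Alb reads in naked mole-rat hearts and 6.67 to 19.7 in naked mole-rat livers. Galk2 and Ap3m2, which were nearer, were not taken per Alb read. Those nearest to Has2 were Fam117a, Dkk2 and Pdia4 (0.19 to 0.21). In liver the nearest to Cd44 were Ntrk2, Clic5 and Dzip3 (0.29 to 0.35), to Hyal1 Rnf130, Adtrp and Adssl1 (0.36 to 0.39), and to Lyve1 Hddc2, Tmem181a and Gda (0.32 to 0.36).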

How the data were processed

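Per the submitters' processing notes, reads were trimmed with cutadapt, quantified with Salmon 013.1 and handled with DESeq2, with GRCm38 as a named build; index, annotation and the matching of genes across species are not given in the sources used here. The authors deposited 1 table per tissue of log2-like variance-stabilised values, keyed by mouse gene identifier. The tables also hold 26 columns of other studies, which were not used. Inverting the transform gave whole reads for 100% of values (tolerance 0.01). Species were compared by limma (version 3.58.1, R version 4.3.3), per tissue over all 14 libraries, with a coefficient per species, a variance trend and Benjamini-Hochberg adjustment over genes whose mean was at least 1 above the value of 0 reads. The pipeline was tested on simulated reads, with changes set only in genes more abundant than Has2, Has3 and Hyal1 are in heart. In naked minus Damaraland it recovered 27% of 2-fold changes in heart and 25% in liver. Of 4-fold changes it recovered 99% and 100%. Recovery of changes in rarer genes was not simulated, so a difference that was not called is weak evidence of no difference. Members and lists were chosen with earlier results of these data known. Named genes were all members, at most 2 called genes per pathway list with the largest difference, and 3 nearest in pattern to each of 3 members per tissue; others are marked where named. Symbols were matched for 13921 of 13928 identifiers. Matching replicate numbers named different animals in different species and did not pair libraries. Alternatives covered thresholds, filter, scaling, variance model, weights, a replicate block, voom on recovered reads and leaving out each library; leaving out a pair of hearts together, and Stab1 and Gata4 from the sinusoidal sums, was added after seeing the data.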

Additional observations from a re-analysis of the deposited data

Results flagged for a closer look

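The fourth Damaraland mole-rat heart had a Has3 value of 7.83 (161 reads), while the other 4 lay between 5.96 and 6.15. It was the 1 library set apart from its group in 24 groups of 4 or 5 libraries examined, and chance sets about 1 in 20 such groups apart. Stab2 differed between naked mole-rat and guinea pig in opposite directions in the 2 tissues. In heart the difference was 1.89, with every naked mole-rat library above every guinea pig library, and in liver it was -0.63, with every library below. The difference between the tissues was not tested, since the tables were made separately.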

How the results depend on the processing

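Of the 11 calls of members in heart (2 in mole-rats minus outgroups and 9 over the 6 pairs), all were kept without the filter, without the variance trend, after centring and after quantile normalisation, and all 18 in liver likewise. Without the size threshold the heart counts were 5 in mole-rats minus outgroups, 1 in both mole-rats and 20 over the 6 pairs, and the liver counts 4 in mole-rats minus outgroups and 2 in naked minus Damaraland. With voom on recovered reads, which does not squeeze rare genes, heart gave 4, 1 and 23 in the same order, and liver 1 in naked minus Damaraland. Keeping genes above the table median left 2 members in heart and gave 0 in mole-rats minus outgroups, 1 in naked minus Damaraland, 0 in naked alone and 1 over the pairs, and in liver 1 in mole-rats minus outgroups; fewer members were tested. Heart naked minus Damaraland had 1 call when tested against a difference of 0.5, with sample weights, and without the third naked and the fourth Damaraland heart together. Leaving out each library gave 1 to 2 calls there and 0 to 1 in naked alone, the 0 being without the first naked heart. The replicate block kept 10 of 11 heart calls and 17 of 18 liver calls, with Cemip and Cd44 as given above, and turned Hyal2 Damaraland minus guinea pig in heart to 0.0102. The numbers paired no libraries: correlations of same-numbered deviations ran from -0.26 to 0.30 in heart, where 6 of 14 libraries correlated best with their own number, and from -0.23 to 0.15 in liver, where 2 of 14 did. Differences near 0 changed sign: Has3 naked minus Damaraland in heart was -0.007 after centring, and quantile normalisation gave -0.0456 for Has3 and -0.0541 for Stab2, guinea pig minus mouse. Leaving out a heart library gave -0.18 to 0.12 for Hyal2 naked minus Damaraland, -0.11 to 0.36 for Has3 naked minus Damaraland, -0.22 to 0.0676 for Cd44 mole-rats minus outgroups and -0.0489 to 0.142 for Stab2 guinea pig minus mouse; in liver Stab2 naked minus Damaraland ran from -0.165 to 0.0233. The cause of these changes was not tested. Without a mouse liver the lone one was assumed to vary like the other groups. Under 20 reads per library, as for Has2 and Cemip in mouse heart, counting error is wide.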
